A study of Mus musculus with 3 samples.

Results

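Cytosolic ribosomal protein genes encode the proteins of the large (Rpl) and small (Rps) subunit of the ribosome that translates nuclear mRNAs. They were chosen by name from GENCODE M1, as protein-coding genes whose symbol starts with Rpl or Rps followed by a digit, leaving out the Rps6k kinases. This gave 134 of 22380 protein-coding genes. Of these, 80 were ribosomal protein genes proper, 53 carried a pseudogene name (-ps) although they are annotated as protein-coding, and 1 was Rps19bp1, which encodes a binding partner of a ribosomal protein.

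The study mapped NKX2-5, a homeodomain transcription factor of the cardiac lineage, on chromatin of hearts from wild-type mouse embryos of the Parkes strain, at stage E11.5. ChIP-seq with an antibody to NKX2-5 was done in duplicate, giving libraries S1 and S4, and a single Input library was not analysed here. Whether the duplicates came from separate pools of hearts is not given in the sources used here. No genotype, treatment or time differed between the ChIP libraries, so there was 1 condition and no test between groups was possible. Hearts hold several cell types, and the lists do not say in which of them a region was bound.

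Ribosomal proteins are made in nearly equal amounts, and their genes are among the most actively transcribed of any growing cell. Their promoters are typically compact, lie in GC-rich sequence and start transcription within a pyrimidine tract. Mammalian genomes also hold many processed copies of ribosomal protein mRNAs, most of them without a promoter of their own. NKX2-5 is best known for enhancers of heart muscle genes, with the core motif AAGTG.

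S1 held 4418 enriched regions, hereafter peaks, and S4 held 5441. A promoter peak is one whose midpoint lay within 1 kb of an annotated transcript start of a gene. Each peak carries a score, the peak caller's p-value as -log10 multiplied by 10. It is set by the background and depth of its own library, which are unknown here. As a check of the tissue, 10 heart muscle genes were looked up, and 9 of them had a promoter peak in at least 1 library. Over all protein-coding genes this share was 7.88%. Each library alone had 7 of the 10, against 4.23% (S1) and 5.61% (S4) of all. Peaks of both libraries overlapped at 5 of the 10, against 1.85% of all. Among these were Popdc2 (scores of 1237 in S1 and 1669 in S4), Myl2 (714 and 1659) and Actc1 (1640 and 177). Nppb and Myh7 had a promoter peak in S1 only, and Myl7 and Tnni3 in S4 only. Tnnt2 had none, with its nearest midpoint 3.03 kb away.

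Ribosomal protein genes carried promoter peaks in both libraries. By the naming rule, 19 of 134 genes had one in S1 (14.2%, exact 95% Clopper-Pearson interval 8.76 to 21.3), against 4.23% of all protein-coding genes, a ratio of 3.35. In S4 the count was 29 of 134 (21.6%, 15.0 to 29.6), against 5.61% of all protein-coding genes, a ratio of 3.86. The mean share was 17.9% ± 5.28 (SD, n = 2 libraries), and 35 genes (26.1%) had a promoter peak in either library against 7.88% of all. The intervals cover counting error only, and genes that share a promoter are not independent of each other.

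All of these peaks belonged to the 80 ribosomal protein genes proper. Their shares were 23.8% in S1 (14.9 to 34.6) and 36.3% in S4 (25.8 to 47.8), 5.61 and 6.46 times the shares of all protein-coding genes. Of the 53 genes with a pseudogene name, 0 had a promoter peak in either library. A count of 0 allows a share of up to 5.66% by a limit of 3 counts, and the exact interval reached 6.72%. Over all protein-coding genes the shares were 4.23% in S1, 5.61% in S4 and 7.88% in either library. Both limits lie above the shares in S1 and S4, so in each library the count of 0 does not set these genes apart. They lie below the share in either library. Each of those 53 consisted of a single exon, compared with 2 of the 80. The annotated starts of the pseudogene-named genes also differed in sequence. Only 3.77% had a start rich in GC and CpG (GC of at least 50% and an observed-to-expected CpG ratio of at least 0.6), against 74.3% in ribosomal protein genes with a promoter peak. Of 32-base words in the 1 kb upstream, 84.7% occurred once in the genome, against 93.3% in ribosomal protein genes with a promoter peak and 89.8% in all protein-coding genes. In the 1 kb downstream the shares were 54.8%, 91.1% and 89.6%. Words that occur more than once limit where short reads can be placed, and the part of this in the count of 0 was not tested.

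**Figure D1:**
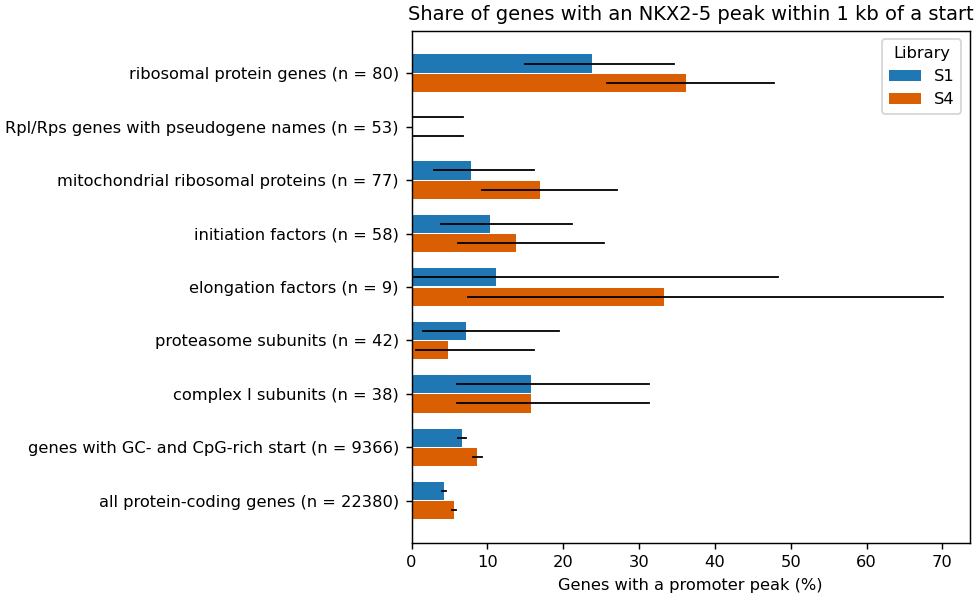
Share of genes (x axis, %) with an NKX2-5 peak midpoint within 1 kb of a transcript start, by gene list and library (S1 blue, S4 orange). Bars start at 0 and black lines are exact 95% binomial intervals. Ribosomal protein genes reach 23.8% and 36.3%, pseudogene-named copies have no bar, and all protein-coding genes stand at 4.23% and 5.61%.

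Other gene families that every cell uses were looked up by name for comparison. Mitochondrial ribosomal protein genes, which serve the separate ribosome of that organelle, had promoter peaks in 7.79% (S1) and 16.9% (S4) of 77 genes. Translation initiation factors stood at 10.3% and 13.8% of 58 genes, and complex I subunits of the respiratory chain at 15.8% in both libraries of 38 genes. Proteasome subunits stood at 7.14% and 4.76% of 42 genes. Elongation factors were few, with 1 of 9 genes in S1 and 3 of 9 in S4. The intervals of several of these lists overlapped that of the ribosomal protein genes, as the plot of shares by gene list shows, and no difference between lists was tested. Promoter peaks were also more frequent at GC- and CpG-rich starts in general, with 6.68% in S1 and 8.64% in S4 of 9366 genes. Against this background the ratio for the 134 genes was 2.12 in S1 and 2.51 in S4, and for the 80 ribosomal protein genes proper it was 3.55 and 4.20. Of the 58 ribosomal protein genes that themselves have such a start, 14 had a promoter peak in S1 (24.1%) and 21 in S4 (36.2%), ratios of 3.61 and 4.19. Among ribosomal protein genes themselves, starts of this kind made up 74.3% of the 35 with and 71.1% of the 45 without a promoter peak.

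The duplicate libraries overlapped at 12 ribosomal protein genes, 8.96% of the 134 against 1.85% of all protein-coding genes, a ratio of 4.84. They were 15% of the 80 ribosomal protein genes proper (8.0 to 24.7), a ratio of 8.11. These 12 genes were 63.2% of the ribosomal protein genes with a promoter peak in S1 and 41.4% of those in S4. For all protein-coding genes the corresponding shares were 43.7% and 33.0%. The shares at ribosomal protein genes rest on only 19 and 29 genes, and no difference was tested. Counting genes with a promoter peak in both libraries, overlapping or not, added Rps18 and gave 13 genes (9.70%, against 1.96% of all).

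The small subunit contributed 6 of the 12 genes. Rps9, which encodes a protein that takes part in accurate decoding, had the strongest peaks, with a score of 366 in S1 at chr7:3655303-3656174 and of 468 in S4 at chr7:3655101-3656106 (mm9). Rps21 followed, with 304 in S1 at chr2:179991372-179992222 and 444 in S4 at chr2:179991508-179992353. Both genes ranked among the highest ribosomal protein peaks of each list. Rps12 scored 249 and 340, and Rps27a, which is made as a fusion with ubiquitin, scored 251 and 259. Rps15a scored 183 in S1 and 238 in S4. In each of the 6 small subunit genes the S4 score was the higher of the pair.

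The large subunit contributed the other 6. Rpl3, which reaches towards the peptidyl transferase centre, differed most between libraries, with a score of 154 in S1 and 354 in S4, a ratio of 2.30. Rpl4, a protein that lines the exit tunnel, scored 201 and 205, and Rpl36a on chromosome X scored 198 and 215. Rpl30 scored 157 and 203. Rpl37a was the pair with the lower score in S4, at 186 in S1 and 171 in S4. Rpl6, named here after its values were seen because it ranks below the naming limit, scored 149 and 153, close to the lowest score of 140 in both lists.

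Across the 12 pairs the S4 score was higher in 11, with a median ratio of S4 to S1 of 1.25 (range 0.920 to 2.30). Over all 380 overlapping pairs of promoter peaks the median ratio was 1.20, and S4 was higher in 240. Midpoints of the 12 pairs lay a median of 119 bp apart (33 to 404), against 104 bp over all promoter pairs. Scores are not scaled between libraries, so a difference in score cannot be told apart from a difference in depth.

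**Figure D2:**
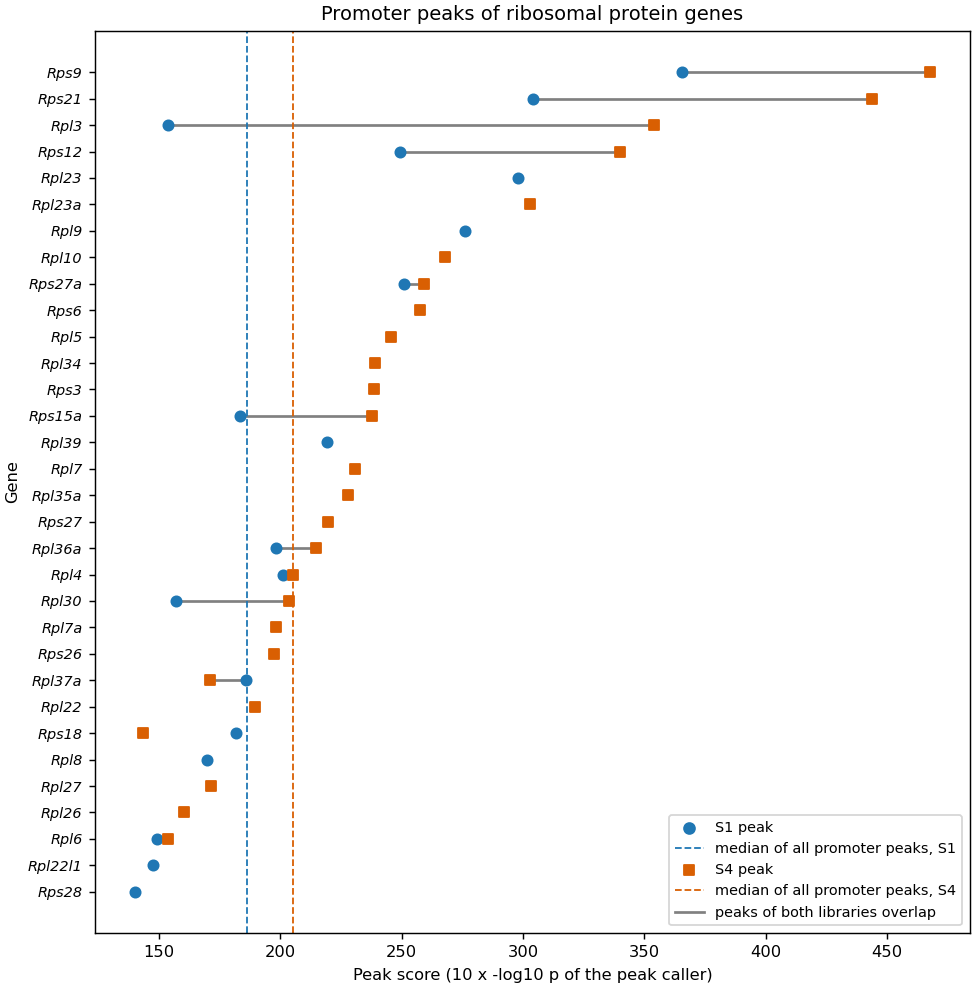
Score of each promoter peak (x axis, -log10 p of the caller multiplied by 10) for 32 of the 35 ribosomal protein genes with a peak in S1 (blue circles) or S4 (orange squares), with the best-ranked gene on top. Grey lines join peaks of both libraries that overlap, and dashed lines are the medians of all promoter peaks, 186 in S1 and 205 in S4. Rps9 and Rps21 lead in both libraries, and most genes without a grey line have a peak in S4 only.

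A further 16 ribosomal protein genes had a promoter peak in S4 only. Of the 134 genes, 29 had one in S4 and 13 in both libraries. Of all 22380 protein-coding genes, 1255 had one in S4 and 438 in both. Among the highest of the 16 were Rpl23a (303), Rpl10 (268) and Rps6 (258). RPS6 is the small subunit protein phosphorylated in response to growth signals. Rpl5, which forms the particle with 5S rRNA that also restrains MDM2, scored 246. Rpl34 scored 239, Rps3 scored 239 and Rpl7 scored 231. Rpl35a, Rps27, Rpl7a, Rps26 and Rpl22 lay between 228 and 190, with Rpl27 (171) and Rpl26 (160) lowest. Rpl27 and Rpl26 fall below the naming limit too. At these 16 genes the nearest S1 midpoint was a median of 150 kb away, and at 1 of them it lay within 5 kb.

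S1 alone marked 6 genes. Of the 134 genes, 19 had a promoter peak in S1 and 13 in both libraries, against 947 and 438 of all 22380. Rpl23 scored 298 and Rpl9 scored 276, followed by Rpl39 (219), Rpl8 (170), the paralog Rpl22l1 (148) and Rps28 (140), which is below the naming limit. The nearest S4 midpoint was 1.56 kb from a start of Rpl23 and lay within 5 kb of a start at 2 of the 6. Rps18 had a peak in each library at different places, 23 bp from a start in S1 (score 182) and 955 bp from another start in S4 (score 143). The S4 peak lay nearest to the start of the neighbouring gene B3galt4.

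The peaks were of moderate strength. In S1 the median score at ribosomal protein genes was 198 against 186 for all promoter peaks, and 10 of 19 peaks were above that latter value. In S4 the median was 238 against 205, and 20 of 29 were above it. The best peak, at Rps9, ranked 887 of 4418 in S1 and 805 of 5441 in S4. Only 1 of 19 S1 peaks (5.26%) and 3 of 29 S4 peaks (10.3%) lay in the highest-scoring 25% of their list, compared with 12.6% and 17.5% of all promoter peaks. Scores under 200 made up 52.6% of the S1 peaks (56.9% of all promoter peaks) and 27.6% of the S4 peaks (47.7%). Peaks with a partner in the other library had median scores of 200 in S1 and 238 in S4, and peaks without one had 182 and 235.

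The median width was 688 bp in S1 (565 to 1008) against 618 bp for all promoter peaks, and 14 of 19 were wider than that. In S4 it was 901 bp (652 to 1264) against 819 bp, and 20 of 29 were wider. The interquartile ranges of ribosomal protein and all promoter peaks overlapped in both libraries, at 623 to 781 bp and 540 to 764 bp in S1 and at 756 to 993 bp and 678 to 993 bp in S4.

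Peaks sat on the starts themselves. Midpoints lay a median of 84 bp from the nearest start in S1 and 67 bp in S4, against 157 bp and 143 bp for all promoter peaks. Within 250 bp of a start lay 17 of 19 midpoints in S1 (89.5%, against 62.8% of all promoter peaks) and 26 of 29 in S4 (89.7%, against 65.2%). The interval covered the nearest start in 18 of 19 peaks in S1 and 28 of 29 in S4. The exception in S4 was the peak of Rps18. Midpoints fell upstream of the start in 10 of 19 and 14 of 29 peaks. The limit of 1 kb decided few genes. The farthest midpoint inside it in S4 was that of Rps18 (955 bp). Just outside it lay Rps2 (1198 bp) in S1, and Rpl23 (1557 bp) and Rpl11 (2026 bp) in S4.

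**Figure D3:**
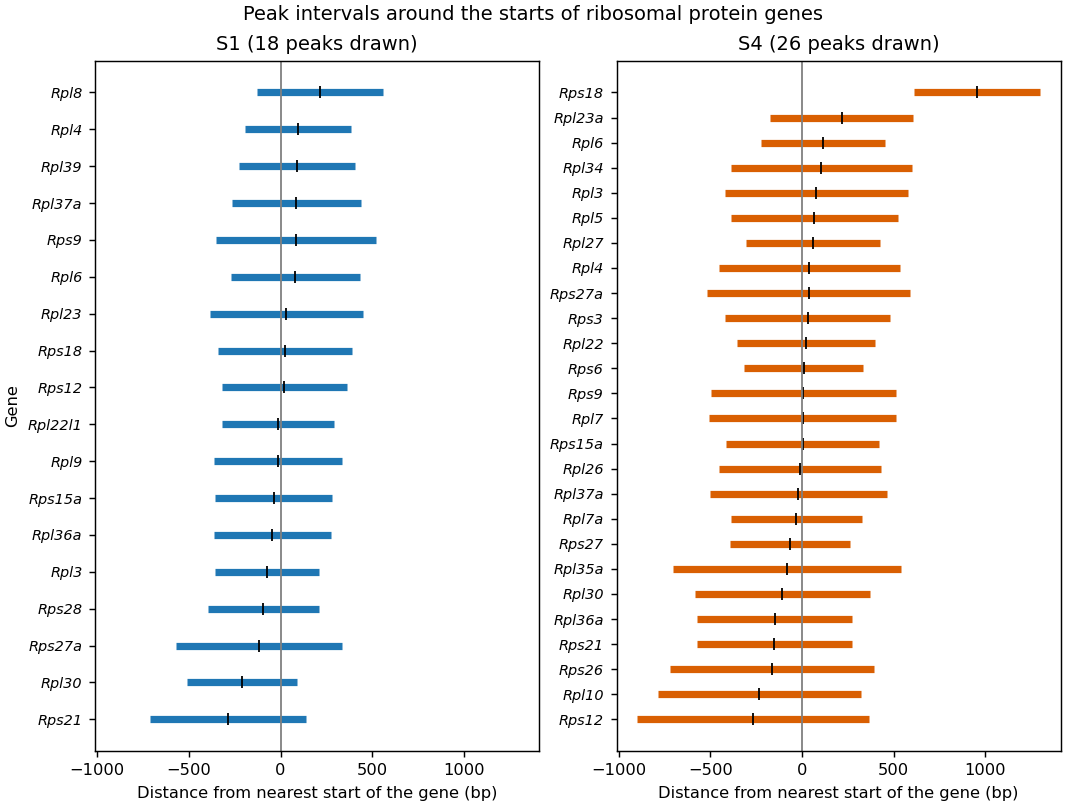
Intervals of 18 of 19 promoter peaks of ribosomal protein genes in S1 (left) and 26 of 29 in S4 (right), by distance from the nearest start of the gene (x axis, bp, downstream positive). Coloured bars are peak widths and black ticks are midpoints. All bars shown cross 0 apart from Rps18 in S4.

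Some of the starts are shared with a neighbour. Another protein-coding gene started within 1 kb of the midpoint for 5 of 19 peaks in S1 and 6 of 29 in S4, among them Zwilch at Rpl4, Med22 at Rpl7a, Iqcg at Rpl35a, Lias at Rpl9 and Ndufa7 at Rps28. At Rps27 and Rps28 the neighbour, Rab13 and Ndufa7 respectively, was the nearer start. Without the genes that share a promoter, 14 of 118 (11.9%) remained with a promoter peak in S1 and 23 of 118 (19.5%) in S4. The ratios to all protein-coding genes under the same exclusion were 3.35 in S1 and 4.17 in S4, beside 3.35 and 3.86 without it.

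By subunit, the counts in S1 were 11 of 48 Rpl genes (22.9%, 12.0 to 37.3) and 8 of 32 Rps genes (25%, 11.46 to 43.4). In S4 they were 16 of 48 (33.3%, 20.4 to 48.4) and 13 of 32 (40.6%, 23.7 to 59.4). The intervals overlapped widely, and no difference was tested. Small nucleolar RNAs, which guide modification of rRNA, lie in introns of many ribosomal protein genes. Of 28 ribosomal protein genes that hold an annotated one on the same strand, 28.6% had a promoter peak in S1 and 39.3% in S4, against 21.2% and 34.6% of the 52 that do not. The share of all protein-coding genes, for these lists and for the subunits, was 4.23% in S1 and 5.61% in S4.

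Ribosomal protein genes linked to Diamond-Blackfan anaemia, an inherited failure of red cell production that can come with heart malformations, were looked up as a list. Of 18 such genes, 2 had a promoter peak in S1 (11.1%, 1.38 to 34.7), against 23.8% of the 80 ribosomal protein genes and 4.23% of all protein-coding genes. In S4 there were 8 (44.4%, 21.5 to 69.2), against 36.3% and 5.61%. Overlapping peaks were found at 1 of the 18, Rps15a (5.56%, 0.141 to 27.3), against 15% and 1.85%. Of 7 paralogs and tissue-restricted forms, 1, Rpl22l1, had a promoter peak in S1 (14.3%, 0.361 to 57.9), against 4.23% of all protein-coding genes. In S4 there were 0 of 7, for which the exact interval reached 41.0%, against 5.61%. Rpl3l, the form of striated muscle, had none, and its nearest midpoint was 5.18 kb away in S1 and 90.9 kb away in S4. A further 7 ribosomal components have names that the rule does not take, among them Rpsa, Rplp0, Rplp1, Rplp2 and Fau. Of the 7, 1 had a promoter peak in both libraries (14.3%, 0.361 to 57.9, in each), against 4.23% and 5.61% of all protein-coding genes. This was Gnb2l1, which encodes the ribosome-bound scaffold RACK1, scoring 144 in S1 and 254 in S4.

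Chromosome X carried few peaks, 33 in S1 and 43 in S4, and 1.18% and 1.61% of its 932 protein-coding genes had a promoter peak. It holds 4 ribosomal protein genes proper. Rpl36a was marked in both libraries, Rpl39 in S1 and Rpl10 in S4, while Rps4x had no promoter peak. Ribosomal protein genes were therefore 2 of 11 X-linked genes with a promoter peak in S1 and 2 of 15 in S4. Over all chromosomes they were 19 of 947 such genes in S1 and 29 of 1255 in S4. With only 4 ribosomal protein genes on chromosome X, no difference was tested.

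At longer range, the nearest midpoint of any peak was a median of 54.0 kb from a start in S1 and 9.80 kb in S4, against 180 kb and 139 kb for all protein-coding genes. Extending the limit from 1 kb to 10 kb took the count from 19 to 27 of 80 genes in S1 (23.8% to 33.8%) and from 29 to 40 in S4 (36.3% to 50%). Over all protein-coding genes with a measured distance the shares went from 4.24% to 9.07% in S1 and from 5.62% to 11.4% in S4.

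The NKX2-5 core AAGTG was searched as exact letters on both strands, where the opposite strand reads CACTT. In the stretch covered by both peaks it was present in 12 of 12 overlapping pairs at ribosomal protein genes and in 76.8% of the 380 overlapping promoter pairs. These stretches had a median length of 649 bp and 622 bp. Of 25 such sites at the 12 genes, 21 lay before the gene start, and at 6 genes the nearest upstream site was within 50 bp of it. The sequences around the nearest upstream core of 6 genes follow, read 5′ to 3′ along the gene strand of mm9, with the NKX2-5 core on either strand and the MEIS1 core (TGACA) in capitals. Rpl4 and Rps9 are shown because there the core runs into TGACA as AAGTGACA. Rpl37a, Rpl36a and Rps21 are shown as examples of a core next to the start, and Rps12 as an example with GG before it. The core of Rpl6, at -2 bp from the gene start and also preceded by GG, is not shown. Rpl4 is taken from chr9:64021141-64021195 (plus strand, core at -26 bp from the gene start). Rps9 is taken from chr7:3655355-3655409 (plus strand, core at -213 bp from the gene start). Rpl37a is taken from chr1:72757791-72757845 (plus strand, core at -16 bp from the gene start). Rpl36a is taken from chrX:131120151-131120205 (plus strand, core at -15 bp from the gene start). Rps21 is taken from chr2:179992040-179992094 (plus strand, core at -15 bp from the gene start). Rps12 is taken from chr10:23507093-23507147 (minus strand, core at -105 bp from the gene start).
Rpl4: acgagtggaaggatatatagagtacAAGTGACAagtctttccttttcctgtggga
Rps9: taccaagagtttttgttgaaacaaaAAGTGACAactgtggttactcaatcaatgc
Rpl37a: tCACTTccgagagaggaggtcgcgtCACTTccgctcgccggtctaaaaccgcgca
Rpl36a: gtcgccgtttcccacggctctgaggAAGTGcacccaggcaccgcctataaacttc
Rps21: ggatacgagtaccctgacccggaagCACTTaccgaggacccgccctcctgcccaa
Rps12: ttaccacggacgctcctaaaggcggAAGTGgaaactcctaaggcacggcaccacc

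At 5 of the 12 genes, Rpl36a, Rpl37a, Rpl6, Rps12 and Rps27a, the nearest upstream core was preceded by GG, giving GGAAGTG. This string also contains GGAA, the centre of sites of ETS factors, which are common at promoters of housekeeping genes. It was picked from the sequences of these 12 genes after they were seen, so its count at them is no independent result. The counts over all ribosomal protein genes with a promoter peak include the same 12. In the stretches of both peaks, GGAAGTG was in 6 of 12 pairs at these genes and in 22.1% of all 380 promoter pairs. Within 100 bp of peak midpoints, 3 of 7 AAGTG sites at ribosomal protein genes lay in GGAAGTG in S1 (42.9%) and 9 of 18 in S4 (50%). Over all promoter peaks the shares were 14.6% and 19.3%, and over peaks away from promoters they were 6.67% and 6.38%. From 250 bp before to 50 bp after the gene start, GGAAGTG was present in 11 of 35 ribosomal protein genes with a promoter peak (31.4%, 16.9 to 49.3). It was in 8 of 45 without one (17.8%, 8.0 to 32.1) and in 11.3% of all protein-coding genes. These intervals overlapped, and no difference was tested. The overlap AAGTGACA, also examined after the sequences were seen, was in 2 of 12 stretches at ribosomal protein genes and in 3.16% of all promoter pairs.

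The other motifs were counted within 100 bp of peak midpoints too. AAGTG was in 36.8% of S1 windows at ribosomal protein genes and 48.3% of S4 windows. All promoter peaks stood at 42.4% and 41.4%, and peaks away from promoters at 64.4% and 62.1%. The longer core TNAAGTG, which contains AAGTG, was in 10.5% and 10.3%, against 15.2% and 13.8% of all promoter peaks and 32.1% and 30% of peaks away from them. TGACA was in 21.1% and 17.2%, against 33.5% and 31.6% of all promoter peaks and 63.7% and 62.5% of peaks away from them. The spaced pair GTGNTGACA, which contains TGACA, was in 0 of 19 and 0 of 29 windows. By the limit of 3 counts this allows shares of up to 15.8% and 10.3%, and the exact intervals reached 17.6% and 11.9%. It was in 2.0% and 1.25% of all promoter peaks and in 8.66% and 8.06% of peaks away from promoters.

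Letters common at promoters were also counted. The ETS core CCGGAA was in 15.8% of S1 and 31.0% of S4 windows at ribosomal protein genes, against 17.8% and 18.1% of all promoter peaks. ATGGCG, the core of sites of YY1, was in 26.3% and 24.1%, against 12.0% and 11.7%. The E-box CACGTG was in 10.5% and 6.90%, against 6.60% and 5.60%, and TATAAA was in 15.8% and 10.3%, against 4.95% and 6.23%. With 19 and 29 windows the exact intervals were wide, from 9.15 to 51.2% for ATGGCG in S1, and no difference was tested. Around gene starts, CCGGAA was in 37.1% of the 35 ribosomal protein genes with and 42.2% of the 45 without a promoter peak, against 17.5% of all protein-coding genes. ATGGCG was in 25.7% and 28.9% of these, against 10.5%. The letters CTTTC, searched on the gene strand within 25 bp of the annotated start as part of a pyrimidine tract, were in 7 of 35 (20%) and 4 of 45 (8.89%), against 6.11% of all protein-coding genes. They were in 16 of the 53 starts with a pseudogene name (30.2%).

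**Figure D4:**
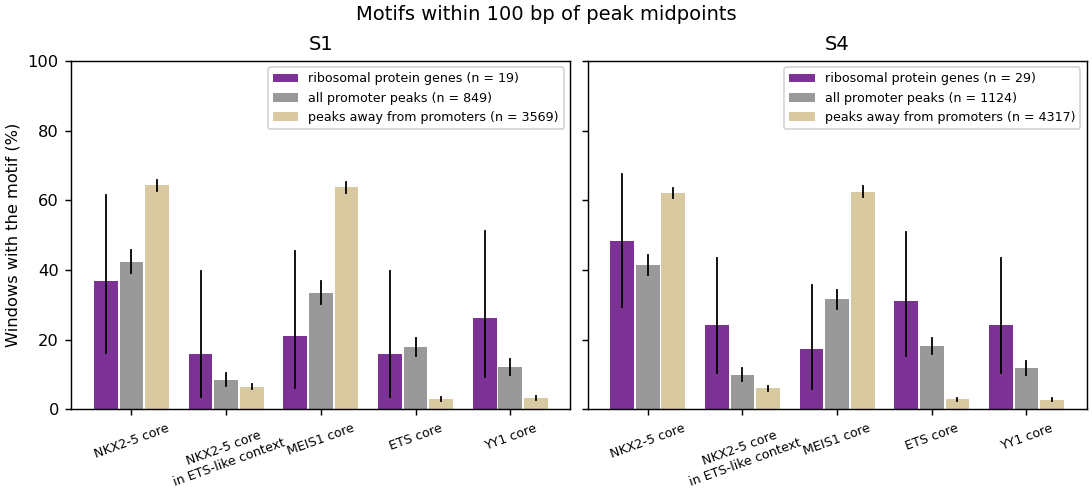
Share of windows (y axis, %) reaching 100 bp from the peak midpoint in both directions that hold a motif on either strand, in S1 (left) and S4 (right). Purple bars are promoter peaks of ribosomal protein genes, grey bars all promoter peaks and tan bars peaks away from promoters, and black lines are exact 95% intervals. The MEIS1 core stands at 21.1% and 17.2% in the purple bars and at 63.7% and 62.5% in the tan bars.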

How the data were processed

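Nuclear DNA bound by NKX2-5 was measured in 2 ChIP libraries of E11.5 hearts. By the study's methods, BOWTIE placed the reads on mm9 and MACS 1.4 called peaks. A separate list of peaks was deposited for each library. The settings and the use of Input as control are not given in the sources used here. The deposited score is the caller's, and the deposited start and end are positions, counted here from 1. Depth is unknown.

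Promoter peaks, overlaps (at least 1 bp), scores and widths were taken from these lists with GENCODE M1 on NCBIM37 (mm9). The procedures recovered planted peaks and overlaps in simulated data. Repeated sequence was measured with 20 evenly spaced 32-base words per window, counted on both strands of the assembly. Intervals are Clopper-Pearson at 0.95. The members and lists were chosen with earlier results of these data known, so no test was run on them. Named genes are the 30 members with the best score rank in either library, ribosomal proteins outside the naming rule and paralogs. Python 3.11.15, numpy 2.4.6, pandas 2.3.3, scipy 1.17.1 and numba 0.67.0 were used. A few genes are counted in the totals but not reported here by name or drawn.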

Additional observations from a re-analysis of the deposited data

How the results depend on the processing

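Of 90 alternatives computed for the shares, ratios, overlap, median scores and median widths, 79 stayed within the 95% interval (or, for the mean share, within 1 SD) of the reported value and 11 moved beyond it. Promoter limits of 500 bp and 2 kb, gene starts only, starts of protein-coding transcripts only, any part of the peak within the limit, equal list lengths and leaving out shared promoters moved none of them beyond it. Equal list lengths cut only the S4 list, so the S1 values could not change under that alternative. A score of at least 200 lowered the S1 share to 6.72% and the overlapping share to 4.48%, since fewer peaks remain, and raised the S4 ratio to 5.29. Leaving out pseudogene names and Rps19bp1, chosen after seeing the data, raised the shares to 23.8% and 36.3%, the mean to 30% and the ratios to 5.61 and 6.46, since genes without peaks leave the denominator. Against GC- and CpG-rich starts, also chosen after seeing the data, the S4 ratio was 2.51. Taking ribosomal protein genes with such a start, chosen likewise, raised the shares to 24.1% and 36.2%. Midpoints within 150 bp left 8 of 12 overlapping genes. Each library alone gave a share of 14.2% to 21.6%. With 2 libraries each value always lies within 1 SD of their mean, so these alternatives, counted among the 79, could not move. No paired analysis was possible because the duplicate libraries belong to 1 group. Separate hearts are not given for them in the sources used here, so their spread may be technical.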
